A study of Mus musculus with 36 samples.

Results

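Interferon-stimulated genes were followed in the gastrocnemius muscle of 36 mice. The set held 39 genes picked by name from the interferon response, and all 39 were found among the 46893 features of the gene-level count table. All mice were wild-type C57BL/6, and each library came from 1 gastrocnemius of 1 mouse. Per the study's methods the mice were male, 3 to 4 weeks old at the start, and killed after 12 weeks. HFD-C mice ate a high-fat diet and were sedentary. NFD-C is labelled as the control on a diet called NFD, which the sources used here do not spell out, and the methods describe the high-fat groups only. The other 4 groups ate the high-fat diet with a wheel in the cage: HFD-U ran without restriction and averaged 8.3 km/day, and brakes held HFD-25%, HFD-50% and HFD-75% at 2.1, 4.2 and 6.3 km/day, which are 25%, 50% and 75% of that distance. Each group had 6 mice, and every comparison against HFD-C in the text used the same 6 HFD-C mice.

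Interferons are secreted proteins that cells release when they sense foreign or misplaced nucleic acid. Type I interferons signal through a receptor whose kinases activate a complex that holds Stat2 and Irf9 and binds the interferon-stimulated response element (ISRE) in DNA. Interferon gamma acts through a separate receptor and leads to binding at the gamma-activated site (GAS). The genes switched on encode antiviral effectors, sensors, ubiquitin-like modifiers, GTPases and proteins of antigen presentation, and most nucleated cells, muscle fibres and endothelial cells among them, can express them.

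Promoter sequences are shown for 7 members because their letters show the elements through which the set is known to respond, and because these genes recur in the results. They were taken from RefSeq (build GRCm38.p6), where the window from 250 bases before to 50 bases after the gene start was given for 27 of the 39 members. The ISRE was searched as GAAANNGAAA and the GAS as TTCNNNGAA, each on both strands. Capitals mark the matches, and a match on the other strand appears as the reverse complement. All stretches lie before the gene start.
Ifit1, chr19:34640749-34640828 (+ strand), ISRE: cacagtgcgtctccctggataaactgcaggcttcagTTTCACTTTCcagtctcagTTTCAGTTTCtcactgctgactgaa
Ifit3, chr19:34583349-34583428 (+ strand), ISRE: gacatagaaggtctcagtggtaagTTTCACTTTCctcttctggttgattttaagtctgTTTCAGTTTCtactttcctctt
Ifit3b, chr19:34607745-34607824 (+ strand), ISRE: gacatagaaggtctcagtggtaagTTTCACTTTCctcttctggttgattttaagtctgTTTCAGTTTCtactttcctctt
Isg15, chr4:156200849-156200928 (- strand), ISRE: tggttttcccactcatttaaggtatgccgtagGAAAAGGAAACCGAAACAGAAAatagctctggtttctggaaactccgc
Gbp7, chr3:142530216-142530295 (+ strand), ISRE and GAS: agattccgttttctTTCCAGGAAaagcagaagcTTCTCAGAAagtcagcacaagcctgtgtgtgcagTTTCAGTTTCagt
Irf1, chr11:53769894-53769953 (+ strand), GAS: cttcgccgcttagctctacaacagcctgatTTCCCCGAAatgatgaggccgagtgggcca
Oasl2, chr5:114896814-114896933 (+ strand), neither: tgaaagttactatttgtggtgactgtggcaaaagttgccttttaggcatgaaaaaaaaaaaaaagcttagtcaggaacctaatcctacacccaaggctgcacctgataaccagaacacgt
The Ifit3 and Ifit3b stretches were identical in 80 of 80 bases. The ISRE letters stood in 15 of the 27 member promoters (55.56%) and in 3.99% of the 27025 promoters of all genes, and the GAS letters in 7 of 27 (25.93%) and in 9.55%. Both were present in 4 members, the ISRE alone in 11, the GAS alone in 3 and neither in 9 (Irf7, Irf9, Oasl2, Ifi44, Xaf1, Trim25, Dtx3l, Rnf213 and Cd274). Several members are neighbouring copies of each other, so their promoters are not independent, and a match is a description of the letters and not a binding site.

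Library totals ran from 13060090 to 27981702 counts (median 16710687.5). The share of counts on 15 rRNA-linked features ranged from 2.01% to 3.81% in NFD-C, from 2.12% to 3.54% in HFD-C replicates 1 to 4, and from 0.404% to 1.02% in the running groups, where HFD-C replicates 5 and 6 (0.551% and 0.627%) also lay. The share therefore divides all but 2 of the 12 NFD-C and HFD-C mice from the 24 runners, and against HFD-C it cannot be fully told apart from running. Muscle fibre markers summed to between 86271 and 164160 CPM (counts scaled to a common library size), and the tissue label is skeletal muscle. Replicates of a group differed by far more than counting error.

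Of the 39 members, 32 had a mean of at least 25 counts over the 36 libraries. The other 7 (Zbp1, Oas1a, Mx1, Mx2, Ifi44, Isg15 and Cxcl10) did not and are described separately. Mx1 and Mx2, the classical antiviral GTPases, are listed as transcribed pseudogenes in the count table. Reads of 150 bases cannot always separate copies: in the GENCODE vM21 transcripts 63.2% of the 150-base windows of Gbp10 also occur in Gm43302, 18.5% of those of Ifit3 occur in Ifit3b, and 32.4% of those of Oas1a occur in Oas1g, whereas 30 members share none. Dtx3l and Parp9 overlap on opposite strands, as do Rtp4 and Masp1, Ifi27 and Ifi27l2a, and Cxcl10 and Art3, and whether counting used the strand was not given in the sources used here, so their reads may not be fully separated.

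Levels per length were low for most of the set. As means over the 36 mice in FPKM (CPM divided by the gene's length in kilobases), Ifi27, an interferon-induced membrane protein, stood highest at 19.04, followed by Ifi35 at 9.69 and the virus tether Bst2 at 7.01. The immunity-related GTPases Irgm1 and Igtp followed at 5.19 and 4.79 FPKM. Mx2, the sensor Zbp1 and Mx1 were lowest at 0.209, 0.102 and 0.0793. The members also differed in how widely they varied between mice: the highest mouse had 1.98 times the CPM of the lowest for Ifi27 and 2.13 times for Irgm1, but 11.5 times for Gbp4, 14.2 times for Ifit1 and 31.8 times for Gbp10.

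HFD-25% had the highest group mean in 25 of the 32 members, against 14% of all 12053 genes. NFD-C was highest in 4 (Ifit1, Ifit3b, Dtx3l and Igtp), HFD-C in 2 (Parp9 and Gbp10) and HFD-50% in 1 (Irf9), and neither HFD-75% nor HFD-U was highest in any. The shares of all genes were 17.1% for NFD-C, 14.2% for HFD-C, 25.2% for HFD-50%, 12.4% for HFD-75% and 17.1% for HFD-U. The lowest mean fell in HFD-C for 10 members (15.8% of all genes) and in NFD-C and HFD-75% for 7 each (23.4% and 11.6% of all genes). The only member with its lowest mean in HFD-25% was Gbp10, against 9.81% of all genes.

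The group means of single members are given here by role. Among the transcription factors the 6 group means ran from 5.95 CPM in HFD-C to 10.9 in HFD-25% for Irf1 and from 2.31 CPM in HFD-C to 4.09 in HFD-25% for Irf7. They ran from 6.05 CPM in HFD-U to 8.95 in HFD-25% for Stat2 and from 5.55 CPM in NFD-C to 7.65 in HFD-50% for Irf9. In the IFIT family, whose proteins bind foreign RNA, they ran from 2.54 CPM in HFD-C to 4.43 in HFD-25% for Ifit2, from 3.05 CPM in NFD-C to 4.02 in HFD-25% for Ifit3 and from 2.76 CPM in HFD-50% to 4.76 in NFD-C for Ifit3b. The group means of Ifit3 thus spanned less than those of its near copy Ifit3b. Oas2 ran from 2.63 CPM in NFD-C to 5.73 in HFD-25% and Rsad2 from 2.91 CPM in HFD-U to 6.34 in HFD-25%, and Ifi27 ran from 23.9 CPM in NFD-C to 27.4 in HFD-25% and Ifi35 from 11.97 CPM in HFD-C to 15.01 in HFD-25%. Rtp4, a chaperone of receptors, ran from 2.40 CPM in NFD-C to 3.79 in HFD-25%, and Bst2 from 4.77 CPM in HFD-C to 6.34 in HFD-25%. Xaf1 ran from 3.07 CPM in HFD-75% to 5.64 in HFD-25%. Of the ubiquitin and ADP-ribose enzymes Usp18 ran from 1.27 CPM in HFD-U to 2.79 in HFD-25% and Parp14 from 6.38 CPM in HFD-75% to 10.3 in HFD-25%, Trim25 from 13.4 CPM in NFD-C to 19.3 in HFD-25%, Dtx3l from 5.88 CPM in HFD-50% to 8.84 in NFD-C and Rnf213 from 14.6 CPM in HFD-75% to 20.7 in HFD-25%. Of the GTPases Gbp2 ran from 4.70 CPM in HFD-C to 7.96 in HFD-25%, Gbp3 from 2.89 CPM in NFD-C to 5.85 in HFD-25% and Gbp4 from 5.66 CPM in HFD-75% to 13.8 in HFD-25%, Irgm1 from 13.1 CPM in HFD-C to 16.1 in HFD-25% and Igtp from 8.96 CPM in HFD-50% to 10.4 in NFD-C. Gbp7 ran from 8.64 CPM in HFD-75% to 13.8 in HFD-25%, Iigp1 from 5.17 CPM in HFD-C to 10.8 in HFD-25%, Gbp10 from 8.05 CPM in HFD-25% to 16.1 in HFD-C and, outside the GTPases, Cd274 from 1.71 CPM in HFD-75% to 4.71 in HFD-25%. These are levels, and the tests follow.

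**Figure D1:**
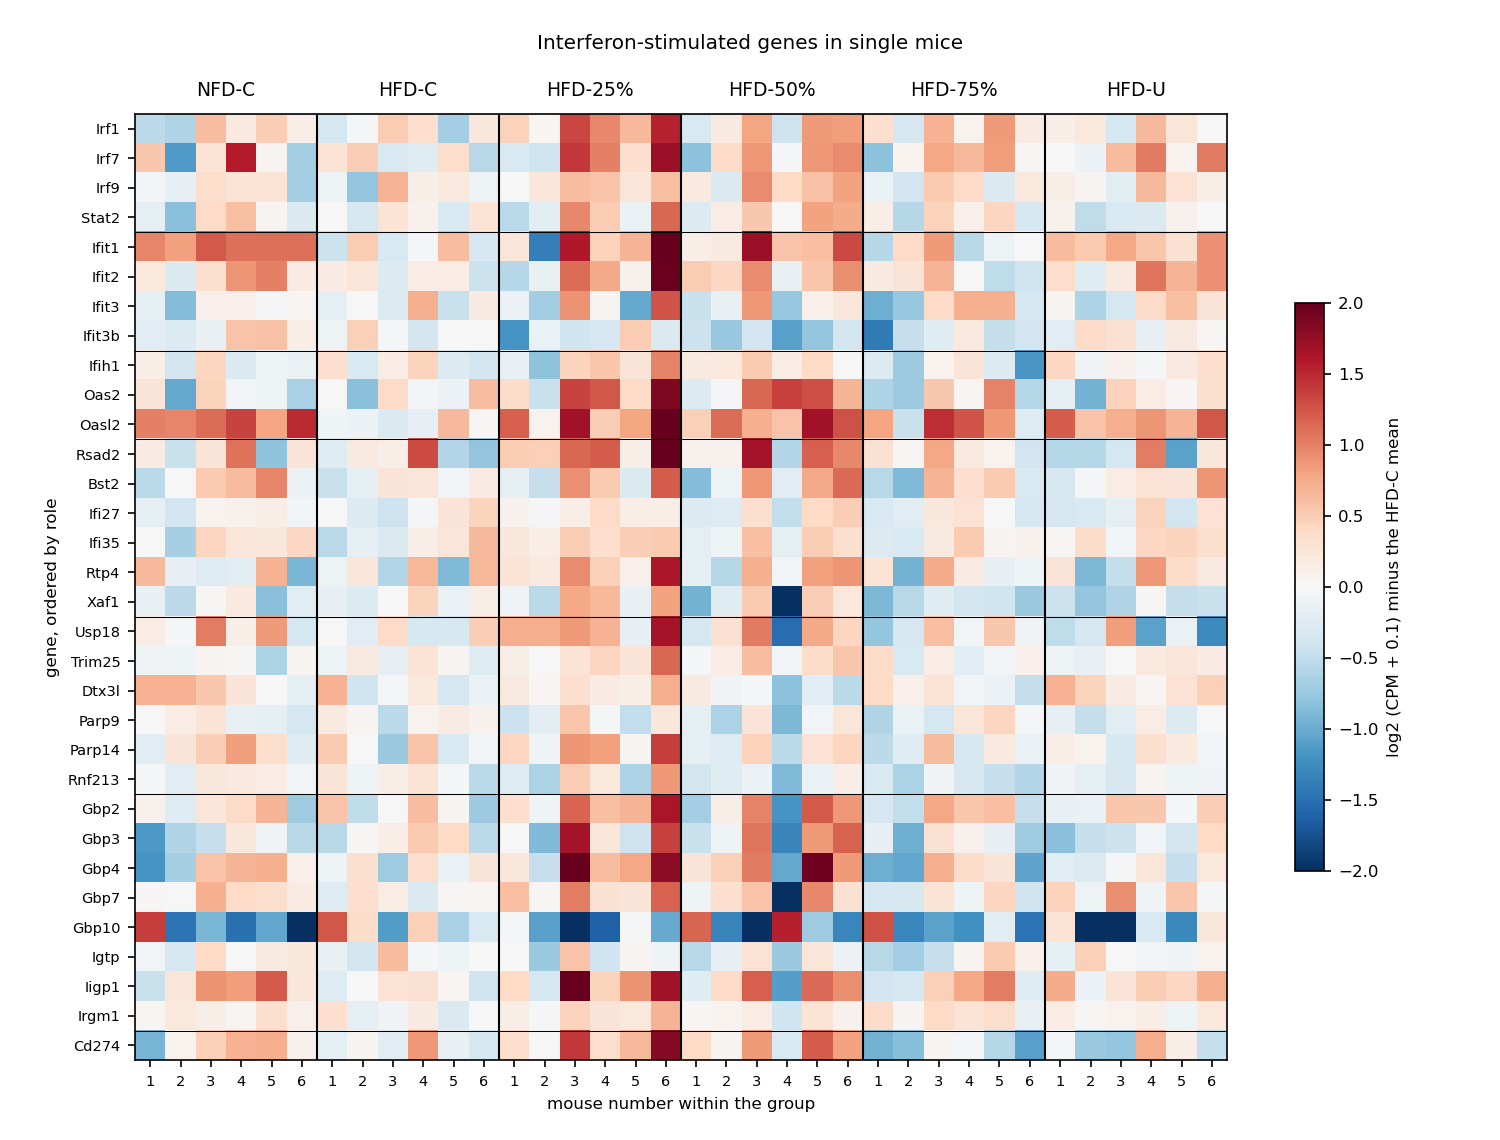
Heat map of the 32 members (rows) in the 36 mice (columns, by group), coloured by log2(CPM + 0.1) minus the HFD-C mean, with the scale ending at -2 and 2. Replicates 3 and 6 of HFD-25% and replicates 3, 5 and 6 of HFD-50% are above the HFD-C mean in most rows, while HFD-50% replicate 4 is below it.

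The comparison of HFD-25% with HFD-C asked what the shortest running distance did. In it 15 of the 32 members passed an unadjusted p of 0.05 in edgeR's quasi-likelihood test, the limit the study set for its gene lists, 14 higher and 1 lower, where 3.4% of all 12202 genes tested were higher and 3.58% lower. The median log2 fold change of the members was 0.48 and that of all genes was -0.01. No member reached an adjusted p of 0.05 (smallest adjusted p = 0.407). DESeq2 likewise gave 0 members at that limit and 16 at the unadjusted limit, against 7.54% of all genes. In all comparisons, called, rose, fell, higher and lower refer to the unadjusted limit, and each adjusted p is printed beside the value. With a covariate for the rRNA-linked share 6 members were called, against 13.4% of all genes, and the median of all 32 was 0.53. These were Irf1, Rsad2, Parp14, Gbp2, Iigp1 and Irgm1, so Oasl2 was not among them. With HFD-C replicates 5 and 6 as the only controls 5 members were called, against 11.6% of all genes, and the median was 0.60.

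The member with the smallest p was Oasl2 (chr5:115034995-115050306, GRCm39), of the antiviral oligoadenylate synthetase family. Its lowest, median and highest CPM were 1.07, 1.24 and 2.14 in HFD-C and 1.41, 2.79 and 7.49 in HFD-25%. HFD-25% replicate 6 was the highest of all 36 mice, and 4 of the 6 HFD-25% mice lay above every HFD-C mouse. The means were 1.37 ± 0.390 and 3.48 ± 2.24 (SD, n = 6 each), and the gene rose (log2 fold change 1.32, SE 0.38, adjusted p = 0.407). Oas2, an enzyme that makes the activator of RNase L, had a mean of 5.73 CPM in HFD-25% against 2.98 in HFD-C (log2 fold change 0.93, adjusted p = 0.622). Beyond the 3 members of smallest p in each comparison, the members given with fold changes here and in the paragraphs that follow were picked once their values had been seen.

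Among the transcription factors 2 of 4 rose. Irf1 (chr11:53660841-53669200), a factor induced by interferon gamma, had lowest, median and highest values of 3.52, 6.16 and 8.17 CPM in HFD-C and 5.90, 10.1 and 16.8 CPM in HFD-25%. The ranges overlapped, with 4 of 6 HFD-25% mice above all HFD-C mice, and the difference passed the unadjusted limit (log2 fold change 0.86, SE 0.26, adjusted p = 0.437). Irf7, the factor that amplifies type I interferon production, averaged 4.09 CPM against 2.31 (log2 fold change 0.80, adjusted p = 0.707). Stat2 and Irf9, which act together at the ISRE, averaged 8.95 and 7.13 CPM against 6.76 and 5.65 and did not pass.

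Of the interferon-induced GTPases, which attack vacuoles that hold microbes and were the largest role tested, 4 of 8 were higher and 1 lower. Among the sensor and OAS genes 2 of 3 were higher. Iigp1 values were 3.85, 5.18 and 6.35 CPM (lowest, median, highest) in HFD-C and 3.98, 8.25 and 20.9 in HFD-25%. All but 1 of the HFD-25% mice were above every HFD-C mouse, and Iigp1 rose (log2 fold change 1.04, SE 0.33, adjusted p = 0.475). Gbp4 ranged from 3.68 to 7.78 CPM in HFD-C and from 4.36 to 30.1 in HFD-25%, where replicates 3 and 6 held 30.1 and 21.3, and it rose (log2 fold change 1.13, adjusted p = 0.515). Gbp7 and Gbp2 rose by 0.60 and 0.74 on the log2 scale (adjusted p = 0.510 and 0.651). Gbp3, Irgm1 and Igtp did not pass: their HFD-25% means were 5.85, 16.1 and 9.49 CPM against 3.93, 13.1 and 10.03 in HFD-C.

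The remaining calls were spread over the other roles. Ifit1, which binds viral RNA whose cap lacks the host's methyl mark, was higher in HFD-25% (3.14 against 1.55 CPM, log2 fold change 1.0, adjusted p = 0.715), but its HFD-25% values ran from 0.513 to 7.30 CPM and so lay on both sides of HFD-C. Ifit2, Ifit3 and Ifit3b did not pass. Of the ISG15, ubiquitin and ADP-ribose enzymes 3 of 6 rose, namely Usp18, the enzyme that removes Isg15 and restrains the type I receptor (log2 fold change 0.83, adjusted p = 0.597), Parp14 (0.59, adjusted p = 0.701) and the ubiquitin ligase Trim25 (0.40, adjusted p = 0.701). Of the 6 other antiviral effectors tested only Rsad2 (viperin, which makes a chain-ending nucleotide) passed, at 6.34 against 3.41 CPM (log2 fold change 0.88, adjusted p = 0.685). The means of Bst2, Ifi27, Ifi35, Rtp4 and Xaf1 were 6.34, 27.4, 15.01, 3.79 and 5.64 CPM against 4.77, 25.3, 11.97, 2.47 and 4.50. Cd274, which encodes the checkpoint ligand PD-L1, was 2.44, 3.52 and 8.95 CPM (lowest, median, highest) in HFD-25% and 1.89, 2.17 and 4.54 in HFD-C (log2 fold change 0.86, adjusted p = 0.630).

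**Figure D2:**
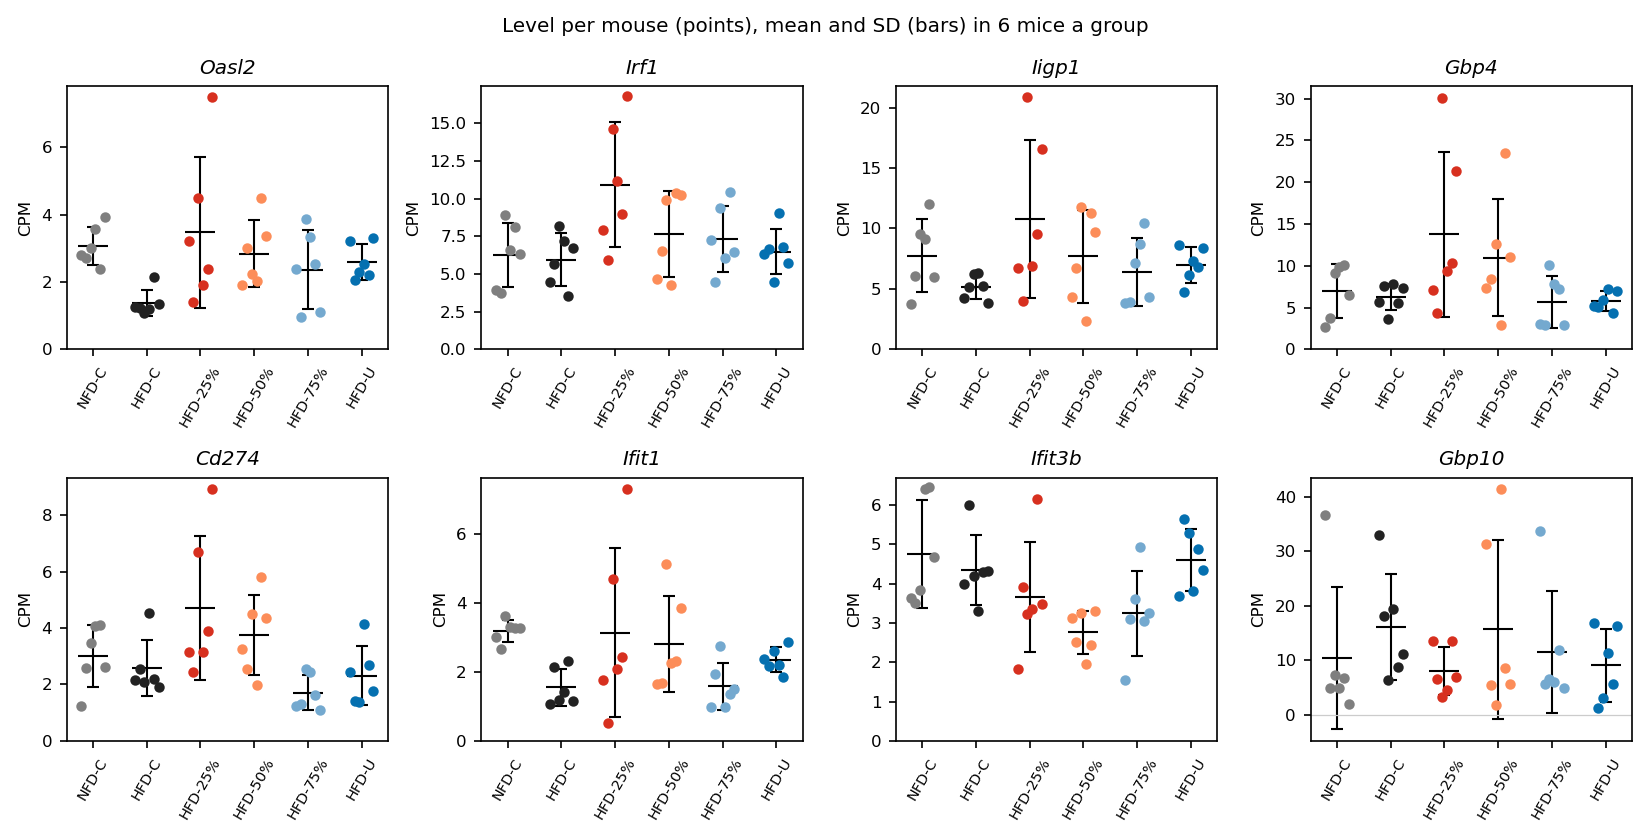
CPM of 8 members in each mouse (points) by group, with the mean and SD of 6 mice (bars). Oasl2 and Ifit1 are lowest in HFD-C by group mean, Irf1, Iigp1, Gbp4 and Cd274 are highest in HFD-25%, Ifit3b is lowest in HFD-50%, and Gbp10 has single high mice in most groups.

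The HFD-25% mice were unequal. Replicate 6 held the highest value of its group in 23 of the 32 members (23.9% of all genes) and lay above every HFD-C mouse in 26 (19.8% of all genes). Replicate 3 lay above every HFD-C mouse in 23 members (14.4% of all genes), whereas replicate 2 was the lowest of its group in 22 (19.1% of all genes). The median over the 32 members of each mouse's log2 difference from the HFD-C mean was 1.23 in replicate 6, 0.90 in replicate 3, 0.47 in replicate 4, 0.18 in replicate 5, 0.12 in replicate 1 and -0.14 in replicate 2. Without replicate 6, 6 members and 6.04% of all genes were called in HFD-25% against HFD-C. The median log2 fold change over the members was then 0.30. Without replicate 3, 9 members and 5.63% of all genes were called.

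Markers of other cell types were measured in the same libraries. The summed CPM of 6 endothelial markers (Pecam1, Cdh5, Kdr, Tek, Cldn5 and Emcn) was 383, 275 and 256 in HFD-25% replicates 6, 3 and 4 and 118 to 133 in the other 3 HFD-25% mice, against 113 to 218 in HFD-C. The 3 HFD-25% mice with the highest member medians were thus the 3 with the highest endothelial sums, and 2 of the 6 markers were higher, Cldn5 (log2 fold change 0.62, SE 0.23, adjusted p = 0.603) and Cdh5 (log2 fold change 0.69, SE 0.28, adjusted p = 0.658). In bulk muscle, a change in the number of cells of a type and a change in RNA per cell cannot be told apart. With the endothelial sum as a covariate, an analysis chosen after the data were seen, 6 members were called in HFD-25%, of which 5 were among the 15: 4 were higher (where 2.76% of all genes were) and 2 lower, and the median log2 fold change of the members was 0.19. Those 6 were Irf1, Oasl2, Iigp1, Gbp7, Gbp10 and Rnf213.

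The summed CPM of 19 leukocyte markers was 32.7 to 68.8 in HFD-25% and 37.5 to 67.8 in HFD-C, and was 39.8 in HFD-25% replicate 6. Of these markers 5 reached the count minimum and none of the 5 was called in HFD-25%. The defining T, B and NK cell markers Cd3g, Cd8a, Ms4a1 and Ncr1 had 11, 11, 9 and 22 counts in all 36 libraries together, and Cd3e, Cd79a, Cd4 and Nkg7 had 162, 44, 36 and 31. Blood and Schwann cell markers gave 0 calls of 5 and of 4 tested in HFD-25%, and adipocyte markers 0 of 3. Summed adipocyte markers had group medians of 7.26 CPM in HFD-25% and 6.88 CPM in HFD-C, where replicate 6 stood at 72.9 CPM and the others at 1.79 to 16.3. Their part in the result was not tested. HFD-25% replicate 6 also had the lowest summed muscle fibre markers of the 36 mice, 86271 CPM. Replicates 3 and 4 had fibre sums of 123031 and 109155 CPM, and replicates 1, 2 and 5 had 147881, 153187 and 156686. Blood sums were 319, 331 and 299 CPM in replicates 3, 4 and 6, and 145, 170 and 211 in replicates 1, 2 and 5. In HFD-C they were 170 to 407 CPM. The 3 mice with the highest endothelial sums thus had the highest blood and lowest fibre and adipocyte sums of HFD-25%. Leukocyte and Schwann cell sums did not divide them so, and the part of each was not tested.

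**Figure D3:**
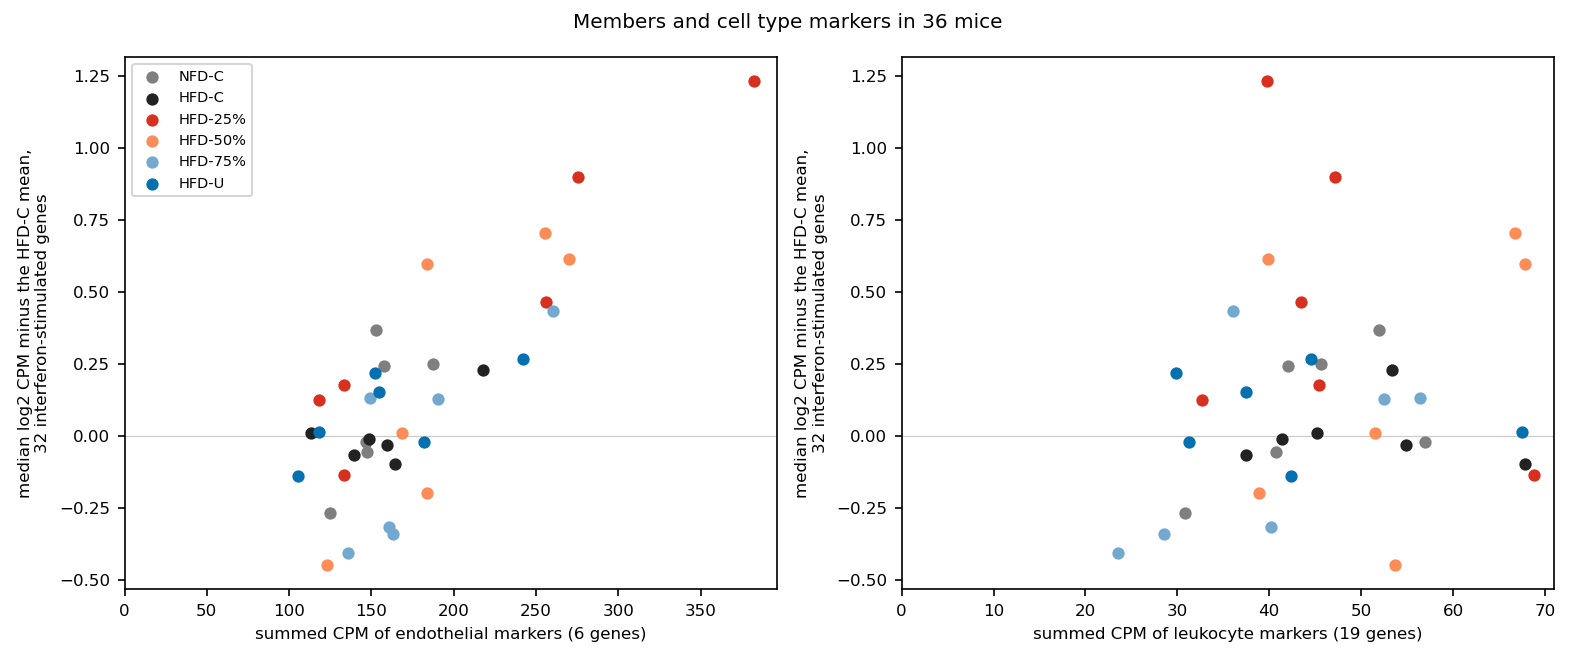
Median over the 32 members of log2 CPM minus the HFD-C mean in each of the 36 mice, against the summed CPM of 6 endothelial markers and of 19 leukocyte markers, with colours for groups. HFD-25% replicate 6 lies at the top of both panels, at an endothelial sum of 383 and a leukocyte sum of 39.8.

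In HFD-50% against HFD-C 6 of the 32 members were called, 5 higher and 1 lower, where 5.8% of 12116 genes were higher and 4.89% lower. The members' median log2 fold change was 0.28 and that of all genes 0.01, and the smallest adjusted p was 0.198. Oasl2 was 1.91, 2.62 and 4.48 CPM (lowest, median, highest), with 4 of 6 mice above every HFD-C mouse, and rose (log2 fold change 1.04, SE 0.29, adjusted p = 0.198). Ifit3b (chr19:34584945-34590801), the gene that shares its promoter stretch with Ifit3, moved the other way: it was 1.96, 2.82 and 3.29 CPM in HFD-50% and 3.30, 4.24 and 5.99 in HFD-C. These groups all but touched, at 3.293 CPM in HFD-50% replicate 6 (46 counts) and 3.297 in HFD-C replicate 4 (53 counts). Ifit3b fell (log2 fold change -0.66, SE 0.21, adjusted p = 0.277). Ifit1, by contrast, averaged 2.81 ± 1.40 CPM against 1.55 ± 0.549 (SD, n = 6) and was higher (log2 fold change 0.86, SE 0.34, adjusted p = 0.396 by edgeR), and Ifit3 averaged 3.45 against 3.40.

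The other calls in HFD-50% were Oas2, Ifit2 and Gbp4, with log2 fold changes of 0.78, 0.57 and 0.80 (adjusted p = 0.407, 0.409 and 0.438). Thus 2 of 4 IFIT genes and 2 of 3 sensor and OAS genes were higher, and none of the 4 transcription factors passed (Irf9 7.65 CPM and Stat2 8.71 CPM on average). The mice again differed among themselves. Replicates 3, 6 and 5 had member medians of 0.70, 0.61 and 0.60 above the HFD-C mean on the log2 scale, while replicate 4 stood at -0.45 and was the lowest of its group in 21 members (30.9% of all genes). Replicates 1 and 2 stood at -0.20 and 0.01. Endothelial sums were 255, 270 and 184 CPM in replicates 3, 6 and 5, 123 in replicate 4, and 184 and 168 in replicates 1 and 2, and Cldn5 was the 1 endothelial marker called (log2 fold change 1.09, SE 0.25, adjusted p = 0.134). The part of these cells was not tested beyond the covariate, with which 4 members and 12.7% of all genes were called and the members' median was 0.02. Without replicate 3, 2 members and 9.73% of all genes were called, and without replicate 1, 11 members and 13.5% of all genes.

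In HFD-75% 3 members were called, 1 higher and 2 lower, where 2.31% of 12113 genes were higher and 3.16% lower. The median log2 fold change of the members was 0.01. Rnf213, a large ubiquitin ligase with antimicrobial activity, was 12.2, 14.5 and 18.1 CPM (lowest, median, highest) against 13.05, 19.6 and 23.02 in HFD-C and fell (log2 fold change -0.42, SE 0.14, adjusted p = 0.665). Xaf1, a pro-apoptotic partner of XIAP, fell from a mean of 4.50 to 3.07 CPM (log2 fold change -0.56, SE 0.20, adjusted p = 0.694), with 5 of 6 mice below every HFD-C mouse. Oasl2 averaged 2.36 ± 1.17 CPM (SD, n = 6), from 0.953 to 3.88, and was the 1 member higher (edgeR log2 fold change 0.77, SE 0.35, adjusted p = 0.892). Replicate 3 of this group held the highest value in 17 members (14.5% of all genes). It also had an endothelial sum of 260 CPM, against 136 to 190 in the other 5 mice. The part of endothelium in these values was not tested beyond the covariate, with which 3 members and 5.96% of all genes were called.

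In HFD-U 4 members were called, 3 higher and 1 lower, where 2.15% of 12023 genes were higher and 3.31% lower, and the members' median log2 fold change was 0.05. Oasl2 was 2.04, 2.41 and 3.30 CPM (lowest, median, highest) and rose (log2 fold change 0.91, SE 0.25, adjusted p = 0.539), with 5 of 6 mice above every HFD-C mouse. Xaf1 fell again (log2 fold change -0.47, SE 0.20, adjusted p = 0.883), to a mean of 3.26 CPM. Iigp1 was higher (log2 fold change 0.42, SE 0.19, adjusted p = 0.904), with means of 6.98 and 5.17 CPM, and Ifit1 was higher too (log2 fold change 0.59, adjusted p = 0.912). Same-numbered HFD-U and HFD-C mice deviated together, and with the mouse number as a block 3 members were called, 1 higher and 2 lower, of which 2 were among the 4, and 10.2% of all genes were called. Iigp1 and Ifit1 then no longer passed. Irf1 and Gbp4, which rose in HFD-25%, averaged 6.48 and 5.79 CPM in HFD-U against 5.95 and 6.26 in HFD-C.

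**Figure D4:**
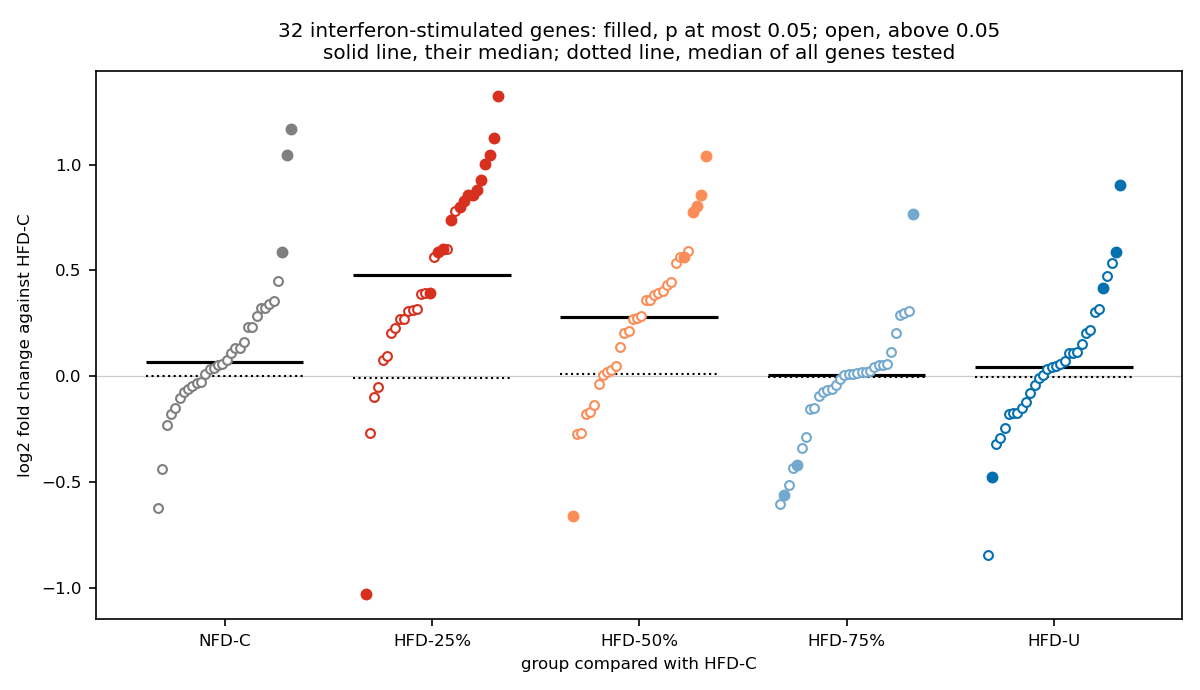
Log2 fold change of the 32 members in each of 5 comparisons against HFD-C (points, filled where p is at most 0.05), with the members' median as a solid line and the median of all genes as a dotted line. The solid line stands at 0.48 for HFD-25%, 0.28 for HFD-50%, 0.01 for HFD-75%, 0.05 for HFD-U and 0.07 for NFD-C, and all comparisons share the HFD-C mice.

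NFD-C and HFD-C differ in the diet label and not in running. In NFD-C against HFD-C 3 members were higher and 0 lower, where 1.98% of 12247 genes were higher and 2.14% lower. Oasl2 was 2.39, 2.90 and 3.93 CPM (lowest, median, highest) in NFD-C, so that all 6 mice lay above every HFD-C mouse, and it was higher in NFD-C (log2 fold change 1.17, SE 0.26, adjusted p = 0.795). Ifit1 (chr19:34618289-34627409) was 2.68, 3.28 and 3.61 CPM in NFD-C and 1.07, 1.30 and 2.32 in HFD-C, again with no overlap (log2 fold change 1.05, SE 0.27, adjusted p = 0.945). How many of all genes separated the groups in this way was not counted. Iigp1 was 7.75 ± 3.02 CPM in NFD-C (SD, n = 6) and 5.17 ± 1.01 in HFD-C (edgeR log2 fold change 0.59, SE 0.25, adjusted p = 1.0). The members as a whole had a median log2 fold change of 0.07. Endothelial sums were 125 to 187 CPM in NFD-C, with 0 of 6 markers called, and of the leukocyte markers 1 was lower.

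Oasl2 and Ifit1 thus had their lowest group means in HFD-C. For Oasl2 the group means ran in the order HFD-25% 3.48, NFD-C 3.07, HFD-50% 2.84, HFD-U 2.60, HFD-75% 2.36 and HFD-C 1.37 CPM, and the ranges of the first 5 overlapped. Over all 24 running mice Oasl2 was higher than in HFD-C (log2 fold change 1.02, SE 0.29, adjusted p = 0.145), with 17 of 24 above every HFD-C mouse and 22 of 24 above the HFD-C mean. For Ifit1 the order was NFD-C 3.19, HFD-25% 3.14, HFD-50% 2.81, HFD-U 2.35, HFD-75% 1.58 and HFD-C 1.55 CPM. In HFD-C the 1 mouse with a higher Oasl2 value, 2.14 CPM, was replicate 5, which has a low rRNA-linked share. HFD-C replicate 6, the other with a low share, had 1.35 CPM. The NFD-C mice, all with high shares, had 2.39 to 3.93 CPM. With HFD-C replicates 5 and 6 as the only controls, Oasl2 was higher on average but not called in any of the 4 running groups. With the covariate for the rRNA-linked share Oasl2 was also called in none of the 4, and it was still called in NFD-C.

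All running mice together gave 2 members higher, Oasl2 and Iigp1 (log2 fold change 0.61, SE 0.30, adjusted p = 0.537, 16 of 24 above every HFD-C mouse), and 0 lower, where 4.15% of 12006 genes were higher and 5.12% lower. The members' median log2 fold change was 0.21. With a covariate for the rRNA-linked share, 0 members and 14.1% of all genes were called over all running mice, where the members' median was 0.27. In that fit 1 member each was called in HFD-50% (Ifit3b), HFD-75% (Xaf1) and HFD-U (Dtx3l), against 11.1%, 10.6% and 14.5% of all genes. Dtx3l was not called in HFD-U without the covariate. Over all running mice without a covariate, Ifit1 came next after Oasl2 and Iigp1 and did not pass (log2 fold change 0.66, SE 0.35, adjusted p = 0.570). The dose response over running distance was fitted with a linear and a quadratic term, tested together, with HFD-C at distance 0. A call there need not mean a steady trend with distance. In this test 8 of 32 members were called, against 12.2% of all genes. Ifit3b (adjusted p = 0.185), Gbp4 (adjusted p = 0.265) and Rsad2 (adjusted p = 0.300) had the smallest p by edgeR. The others were Oas2, Cd274, Stat2, Xaf1 and Usp18. With the summed endothelial markers as a covariate 3 members were called, 2 of them among the 8, against 11.8% of all genes. The endothelial marker Cldn5 itself changed over distance (adjusted p = 0.0108).

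The 4 running groups were also compared with each other, without HFD-C. Here 9 of 32 members were called, against 7.27% of 11935 genes, led by Cd274 (adjusted p = 0.274), Gbp4 (adjusted p = 0.534) and Dtx3l (adjusted p = 0.535). Cd274 values were 1.96, 3.82 and 5.82 CPM (lowest, median, highest) in HFD-50%, 1.39, 2.09 and 4.15 in HFD-U and 1.10, 1.47 and 2.54 in HFD-75%. The lowest HFD-25% value of 2.44 CPM lay just under the highest HFD-75% value of 2.54 CPM, and these ranges overlapped nowhere else. Dtx3l, a ubiquitin ligase that works with Parp9, had its lowest mean in HFD-50% (5.88 CPM) and its highest running mean in HFD-U (8.83 CPM). Over all 6 groups 10 members were called, against 12.2% of 12053 genes, with Cd274 (adjusted p = 0.0872), Oas2 (adjusted p = 0.186) and Oasl2 (adjusted p = 0.187) first. DESeq2 gave an adjusted p of at most 0.05 to 1 member in HFD-50%, 1 in all running mice, 1 among the running groups and 2 among the 6 groups, and edgeR's test without a block or covariate to none in any of these 9 comparisons. With the mouse number as a block edgeR gave such a value to 2 members among the 6 groups, and with the endothelial covariate to 1 member there and 1 in the dose response.

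The spread between mice was wide in the shorter running groups. The median SD of log2 CPM over the 32 members was 0.61 in HFD-25% and 0.56 in HFD-50%, against 0.38 in HFD-C, 0.41 in NFD-C, 0.47 in HFD-75% and 0.30 in HFD-U, while that of all genes was 0.26 to 0.33 in every group. In HFD-25% 25 members (78.1%) had a larger SD than in HFD-C, against 40.0% of all genes. In HFD-50% the count was 26 (81.3% against 51.9%), in HFD-75% 21 (65.6% against 35.3%), in NFD-C 16 (50% against 41.1%) and in HFD-U 12 (37.5% against 35.8%). These are descriptions, and no test of the spread was made.

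Gbp10 (chr5:105363565-105387399) was the only member called lower in HFD-25% and had the widest range of the set. It was 3.32, 6.71 and 13.6 CPM (lowest, median, highest) in HFD-25% and 6.38, 14.6 and 32.9 in HFD-C and was lower (log2 fold change -1.03, SE 0.40, adjusted p = 0.626). The call was lost without HFD-C replicate 1 and in 1 fit over all 36 mice. It was also lost with the rRNA-linked covariate and with HFD-C replicates 5 and 6 as the only controls. It was kept without the mice numbered 1 of both groups and with the mouse number as a block. The mice numbered 1 were high in every group: 36.6 CPM in NFD-C, 33.7 in HFD-75%, 32.9 in HFD-C, 31.3 in HFD-50%, 16.8 in HFD-U and 13.6 in HFD-25%. They held the highest value in all groups but HFD-50%, where replicate 4 had 41.3. In HFD-25% and HFD-U they did not stand apart, as replicate 5 of HFD-25% had 13.5 CPM and replicate 6 of HFD-U 16.3. Most windows of Gbp10 are shared with Gm43302, so its reads may have been split between them.

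The 7 members with few counts were read from their counts. Isg15, the ubiquitin-like protein that is joined to other proteins in the response, had 4, 13, 5, 3, 9 and 2 counts in HFD-C replicates 1 to 6, 14, 9, 36, 23, 11 and 33 in HFD-25%, and 14, 23, 19, 28, 7 and 33 in HFD-U. The groups overlapped in both comparisons. When no minimum count was set, Isg15 was higher by edgeR in HFD-U (log2 fold change 2.03, SE 0.55, adjusted p = 0.381), in HFD-25% (log2 fold change 1.83, SE 0.56, adjusted p = 0.411), in HFD-50% (log2 fold change 1.42, SE 0.62, adjusted p = 0.437) and in all running mice (log2 fold change 1.63, SE 0.47, adjusted p = 0.0849). Ifi44 had 12, 9, 49, 6, 4 and 42 counts in HFD-25% replicates 1 to 6, the high ones being replicates 3 and 6, and 9, 3, 3, 13, 9 and 3 in HFD-C (log2 fold change 1.61, SE 0.64, adjusted p = 0.521 by edgeR). Zbp1, a sensor of left-handed nucleic acid that can trigger cell death, had 0, 0, 6, 1, 3 and 0 counts in HFD-75% and 4, 7, 23, 5, 5 and 5 in HFD-C (log2 fold change -2.03, SE 0.93, adjusted p = 0.578 by edgeR). Cxcl10, the chemokine that draws T cells, averaged 0.588 CPM in HFD-C and 0.507 in HFD-25% and was at 0 counts in 5 of the 36 mice. Oas1a, Mx1 and Mx2 averaged 0.740, 0.318 and 0.519 CPM in HFD-25% against 0.537, 0.190 and 0.63 in HFD-C, and Mx1 was at 0 in 9 mice. Over the 6 groups the means ran from 0.32 CPM in HFD-C to 1.33 in HFD-U for Isg15, from 0.363 CPM in HFD-C to 1.11 in HFD-25% for Ifi44, from 0.104 CPM in HFD-75% to 0.437 in HFD-C for Zbp1, from 0.217 CPM in HFD-75% to 0.588 in HFD-C for Cxcl10, from 0.521 CPM in HFD-U to 0.740 in HFD-25% for Oas1a, from 0.145 CPM in HFD-50% to 0.318 in HFD-25% for Mx1 and from 0.259 CPM in HFD-U to 0.663 in HFD-50% for Mx2.

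Ifih1, the cytoplasmic sensor of long double-stranded RNA, and Parp9 were called in none of the 5 comparisons against HFD-C by group. Ifih1 group means ran from 3.08 CPM in HFD-75% to 4.72 in HFD-25%, and Parp9 means from 6.27 in HFD-50% to 7.06 in HFD-C.

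Other genes of the pathway, from lists set beside the members, were read in the same fits, and none had an adjusted p of at most 0.05. The interferons themselves were close to absent: of 10 ligand genes only Ifng had any counts, 6 in all 36 libraries, in HFD-75% replicate 4 and HFD-U replicate 1. Of 40 other induced genes 29 were tested in HFD-25% and 8 were higher, with the GTPase Tgtp2 at the smallest p (log2 fold change 1.14, SE 0.36, adjusted p = 0.495), a median log2 fold change of 0.42 and the same 3.4% of all genes higher as background. Of the antigen presentation genes 3 of 18 were higher, among them Nlrc5, the activator of MHC class I genes (log2 fold change 0.96, SE 0.35, adjusted p = 0.597). Of the sensing genes 1 of 9 was higher, the adaptor Myd88 (log2 fold change 0.51, SE 0.19, adjusted p = 0.578). Of the receptors and JAK-STAT genes 0 of 12 were called, and Stat3 had the smallest p (log2 fold change -0.31, SE 0.15, adjusted p = 0.732).

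In HFD-50% 5 of 28 other induced genes were higher, where 5.8% of all genes were higher and 4.89% lower. The nuclear body protein Sp100 had the smallest p (log2 fold change 0.61, SE 0.25, adjusted p = 0.401). The receptor chain Ifngr2 was lower (log2 fold change -0.38, SE 0.15, adjusted p = 0.370), the MHC class Ib gene H2-T23 was higher (log2 fold change 0.61, SE 0.24, adjusted p = 0.376), and Myd88 was higher (log2 fold change 0.43, SE 0.20, adjusted p = 0.463), each the 1 call of its list. In HFD-U 4 of 18 antigen presentation genes were lower and 0 higher, where 3.31% of all genes were lower and 2.15% higher. The MHC class II chain H2-Aa was first (log2 fold change -0.62, SE 0.18, adjusted p = 0.582), and H2-Aa was also lower in HFD-75% (log2 fold change -0.70, SE 0.27, adjusted p = 0.80). The leukocyte marker Cd68 was lower in both groups as well, and the part of leukocytes was not tested. In HFD-U no other induced gene of 27 and no receptor gene of 12 was called, with Sp100 (log2 fold change 0.42, SE 0.22, adjusted p = 0.945) and Irf2 (log2 fold change 0.22, SE 0.13, adjusted p = 0.975) at the smallest p, and the kinase Tbk1 was the 1 sensing gene called (log2 fold change 0.27, SE 0.12, adjusted p = 0.883).

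In HFD-75% 1 of 27 other induced genes was lower, Gbp9 (log2 fold change -0.37, SE 0.17, adjusted p = 0.892), where 3.16% of all genes were lower and 2.31% higher. Neither Ifngr2 (log2 fold change -0.24, SE 0.11, adjusted p = 0.929) nor Tbk1 (log2 fold change 0.26, SE 0.13, adjusted p = 0.936), the first of their lists, passed. In NFD-C each list had 1 call, of 12, 9, 29 and 18 genes tested, where 1.98% of all genes were higher and 2.14% lower. Irf2, an antagonist of Irf1, was higher (log2 fold change 0.38, SE 0.12, adjusted p = 1.0), the RNA sensor gene Ddx58 was lower (log2 fold change -0.59, SE 0.26, adjusted p = 1.0), Ddx60 was higher (log2 fold change 1.05, SE 0.33, adjusted p = 1.0) and H2-Eb1 was higher (log2 fold change 0.63, SE 0.23, adjusted p = 1.0). In all running mice the smallest p of each list belonged to Ifngr2 (log2 fold change -0.25, SE 0.10, adjusted p = 0.363), Tbk1 (log2 fold change 0.22, SE 0.09, adjusted p = 0.444), Sp100 (log2 fold change 0.53, SE 0.23, adjusted p = 0.454) and H2-T23 (log2 fold change 0.45, SE 0.22, adjusted p = 0.530).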

How the data were processed

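RNA from 1 gastrocnemius of each of 36 mice was sequenced as poly(A)-selected libraries with 150-base paired reads. The authors deposited gene-level raw counts, and no normalisation had been applied to these counts. The submitters' processing notes name HISAT2 2.0.5, featureCounts 1.5.0-p3, StringTie 1.3.3b, DESeq2 1.20.0 and edgeR 3.22.5 and the build mm10. The gene coordinates in the deposited count table are those of GRCm39, and promoter positions are those of GRCm38.p6.

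Counts were tested in R 4.3.3 with edgeR 4.0.16 (TMM scaling, quasi-likelihood F-test), on genes with a mean of at least 25 counts over the libraries of a fit. Each comparison used only its own groups, p-values were Benjamini-Hochberg adjusted over all genes of the fit, and a gene was called at an unadjusted p of at most 0.05, the limit the study used. DESeq2 1.42.0 was an alternative. The fitting code was tested on simulated data. Printed CPM values are TMM-scaled over the 36 libraries.

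Members past 0.05 in adjusted p, and otherwise the 3 with the smallest p in each comparison, were given a fold change, as was the gene with the smallest p in each pathway list. Mice were named where they held the highest value of their group in most members. Other genes and mice were named after their values were seen. The members, the pathway lists and the marker lists were chosen with earlier results of these data known.

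Each library was 1 mouse, and pairs of a group differed with a chi-square per degree of freedom of 16.2 to 218. The labels number the mice of every group 1 to 6 without saying what a number shares. Deviations from the group means correlated above 0.1 in all 6 same-numbered pairs of HFD-U and HFD-C (0.125 to 0.510), and in 3, 4, 5 and 1 of the 6 pairs of NFD-C, HFD-25%, HFD-50% and HFD-75% with HFD-C. Blocked fits, other scalings, minimum counts, covariates and fits without each mouse were run as alternatives.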

Additional observations from a re-analysis of the deposited data

Results flagged for a closer look

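Each of the 32 tested members was examined in each of the 6 groups for a single mouse far from the other 5, and 10 of 192 cases were flagged, where chance flags about 1 in 20. In HFD-C the values that stood apart were Oasl2 in replicate 5 (2.14 CPM, the others 1.07 to 1.35), Cd274 in replicate 4 (4.54, the others 1.89 to 2.56), Parp9 in replicate 3 (4.75, the others 7.27 to 7.89) and Igtp in replicate 3 (15.3, the others 7.53 to 9.80). In HFD-25% the ubiquitin ligase Trim25 stood at 31.8 CPM in replicate 6, the others at 14.4 to 19.4. In HFD-50% replicate 4 was low in Gbp7 (1.39 CPM, the others 8.38 to 17.3) and in Irgm1 (9.82, the others 13.3 to 15.8). In HFD-U replicate 2 was high in Igtp (13.6 CPM, the others 8.67 to 10.3). In NFD-C replicate 2 was low in Ifit3 (1.75 CPM, the others 2.88 to 3.54) and replicate 5 in Trim25 (9.20, the others 13.5 to 14.9).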

How the results depend on the processing

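All counts here are members called at an unadjusted p of at most 0.05. No named member changed direction where it was called, and none of the 468 group levels moved by more than 1 SD. With a covariate for the rRNA-linked share the calls were 6 in HFD-25%, 1 each in HFD-50%, HFD-75% and HFD-U and 0 in all running mice, against 10.6% to 14.5% of all genes. With HFD-C replicates 5 and 6 as the only HFD-C mice (fewer samples) they were 5, 1, 1, 1 and 0, against 8.99% to 13.4%. Those in HFD-50%, HFD-75% and HFD-U were Rsad2, Rsad2 and Dtx3l, none of them called there with all HFD-C mice. In 1 fit over all 36 mice the calls were 1 in HFD-U (5.33% of genes) and 1 in all running mice (9.93%). With the summed endothelial markers as a covariate they were 6 in HFD-25% (7.04%) and 3 in the dose response (11.8%). Apart from the sample and covariate choices named, the cause was not tested. Leaving out each mouse in turn gave 6 to 17 calls in HFD-25% (5.16% to 8.85% of all genes). There were 6 without HFD-25% replicate 6 and 17 without its replicate 1 or 2. HFD-50% gave 2 to 11 (8.46% to 13.5%), with 2 without its replicate 3 and 11 without its replicate 1. HFD-75% gave 2 to 4 (4.23% to 6.64%) and HFD-U 1 to 3 (4.38% to 6.89%), with 1 without HFD-U replicate 1. NFD-C gave 2 to 4 (3.08% to 6.41%) and all running mice 1 to 4 (8.08% to 10.4%), with 4 without HFD-C replicate 3. With the mouse number as a replicate block 11 members were called for HFD-25%, 4 each for HFD-50%, HFD-75% and NFD-C, 3 for HFD-U, 2 in all running mice, 8 in the dose response, 9 among the running groups and 11 among the 6 groups, against 6.89% to 20.3% of genes. That fit lost the calls of Irf7, Ifit1, Trim25, Gbp4 and Cd274 in HFD-25%, Ifit1, Ifit2 and Gbp4 in HFD-50%, Oasl2 in HFD-75%, Iigp1 and Ifit1 in HFD-U, Iigp1 in all running mice and Xaf1 among the running groups. Across all settings the calls on named members were the same in 389 cases, weaker in 97 and stronger in 6. The 7 members under the count minimum rest on few reads.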
